A study of Mus musculus with 24 samples.

Results

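The 10 genes described here mark reactive astrocytes and were followed in the mouse brain after repeated systemic exposure to lipopolysaccharide (LPS, an outer membrane component of gram-negative bacteria). They are Gfap, Vim, Cd44, Timp1, Steap4, S1pr3, Aspg, Ggta1, Srgn and Emp1. Their rows were found by symbol, but the list itself was drawn up with earlier results of these data known. They make up 10 of the 55421 genes in the deposited count table. Of the 10, 9 passed the filter on low counts and were tested among 14380 genes, and Steap4 did not pass. The study measured 3′ tags of polyadenylated RNA (QuantSeq, which counts transcript ends and so depends little on gene length) in the left brain hemisphere of 24 mice. Its title names gp91phox (Nox2), the electron-carrying subunit of the NADPH oxidase of phagocytes. The 4 groups of 6 mice were Nox2 knockout with LPS, Nox2 knockout with PBS, wild type with LPS and wild type with PBS. All mice were labelled C57BL/6J and 3 months old. An intraperitoneal injection of 100 µl was given on each of 4 days, and the LPS mice received 1 µg per g body weight per day of Salmonella abortus equi LPS. Which stretch of the gene is disrupted, and whether wild type mice were littermates, is not in the labels.

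Astrocytes are the glial cells that line the blood vessels and synapses of the brain, and in injury or inflammation they enlarge their intermediate filament skeleton and change the proteins they secrete and display. Gfap and Vim encode filament proteins of that skeleton, and Gfap is the classical marker of reactive astrocytes. In mouse work on astrocytes after LPS or arterial occlusion, Gfap, Vim, Cd44, Timp1, Steap4, S1pr3 and Aspg were grouped as genes shared by both states. Ggta1 and Srgn were grouped with the LPS state, called A1, and Emp1 with the ischaemic state, called A2. Several of these genes are also used by other cells, such as Vim by endothelium and fibroblasts and Srgn and Cd44 by leukocytes.

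The 300 bases around the RefSeq transcription start (250 before to 50 after, GRCm38.p6) are printed for 4 of the 10 genes, which differ in the motifs they hold while all 4 rose in at least 1 genotype. Gfap lies at chr11:102897151-102897450 on the minus strand, Vim at chr2:13574061-13574360 on the plus strand, Timp1 at chrX:20869916-20870215 on the plus strand and Emp1 at chr6:135362681-135362980 on the plus strand. Capitals mark matches, on either strand, to a STAT motif (TTCNNNGAA) or an AP-1 motif (TGANTCA).
Gfap: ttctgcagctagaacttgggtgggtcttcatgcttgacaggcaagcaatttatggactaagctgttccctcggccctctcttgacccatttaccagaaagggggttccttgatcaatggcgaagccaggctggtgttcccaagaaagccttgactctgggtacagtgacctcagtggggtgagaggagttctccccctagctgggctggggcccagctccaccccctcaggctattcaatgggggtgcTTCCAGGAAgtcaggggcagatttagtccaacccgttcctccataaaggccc
Vim: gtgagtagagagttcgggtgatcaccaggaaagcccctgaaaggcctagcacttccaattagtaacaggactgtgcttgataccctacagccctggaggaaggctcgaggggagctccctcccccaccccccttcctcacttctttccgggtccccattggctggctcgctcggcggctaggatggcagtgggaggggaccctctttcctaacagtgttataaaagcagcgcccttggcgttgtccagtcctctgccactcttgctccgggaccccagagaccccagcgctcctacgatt
Timp1: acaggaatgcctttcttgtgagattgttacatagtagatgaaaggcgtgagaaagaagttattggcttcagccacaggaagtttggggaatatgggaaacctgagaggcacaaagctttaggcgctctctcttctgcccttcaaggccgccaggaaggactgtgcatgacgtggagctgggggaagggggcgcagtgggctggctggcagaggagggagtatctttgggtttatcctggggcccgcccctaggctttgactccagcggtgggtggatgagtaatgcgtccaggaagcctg
Emp1: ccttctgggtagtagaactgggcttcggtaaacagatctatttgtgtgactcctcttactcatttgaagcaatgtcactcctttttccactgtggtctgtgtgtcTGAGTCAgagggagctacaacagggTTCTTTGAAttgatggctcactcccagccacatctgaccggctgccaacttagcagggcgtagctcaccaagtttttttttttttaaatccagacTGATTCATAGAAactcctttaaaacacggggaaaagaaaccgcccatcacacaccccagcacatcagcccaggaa
Gfap held a STAT match from position -2 to 7 relative to the start. Vim held neither motif in this window, and nor did Timp1, the gene with the largest LPS fold of the 9 tested. In the window printed, Emp1 held STAT matches at -120 to -112 and at -22 to -14 and AP-1 matches at -145 to -139 and at -25 to -19, and the STAT and AP-1 matches nearest the start overlap. A further RefSeq window of Emp1, not printed, at chr6:135367243-135367542 on the plus strand, held neither motif. Steap4, not printed, held a STAT match at -116 to -108. Over the 12 RefSeq windows of the 10 genes, 3 held the STAT motif and 1 the AP-1 motif. Among 32851 windows of the same length genome-wide, 8.3% held the STAT motif and 7.81% the AP-1 motif. These are matches of letters only, and for Gfap, Vim and Emp1 the RefSeq start lies inside the gene's GENCODE M21 span.

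Libraries held 2340184 to 5256169 counts, so 1 CPM (a count scaled to library size with TMM factors) stood for 2.31 to 5.20 counts. Within groups, every pair of libraries differed by more than counting noise, with a chi-square per degree of freedom between 1.41 and 4.74. Brain markers were present, as none of 15 astrocyte identity genes and none of 6 neuron genes was at 0 in every library of a group. This does not check which part of the brain was sampled. Cybb, the target of the knockout, encodes gp91phox and averaged 72.0 ± 4.04 CPM (SD, n = 6) in the libraries labelled knockout after LPS and 67.8 ± 5.18 CPM in those after PBS. It averaged 24.7 ± 8.06 CPM in wild type after LPS and 1.49 ± 0.653 CPM in wild type after PBS. Its counts were thus higher in the libraries labelled knockout, and tags at the 3′ end do not check the genotype. Every genotype direction below rests on those labels.

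The first question was which of these genes LPS changed in each genotype. In knockout, 7 of 9 tested genes rose with LPS and 0 fell at an edgeR adjusted p under 0.05, where 7.05% of all tested genes rose, 3.82% fell and 10.9% changed in either direction. In wild type, 7 of 9 rose and 0 fell, where 10.9% of all tested genes rose, 7.12% fell and 18.1% changed in either direction. Gfap, Vim, Timp1, Aspg, Ggta1 and Srgn rose in both genotypes. Emp1 was called in knockout and Cd44 in wild type. S1pr3 was called in neither. Timp1, Aspg and Emp1 passed the filter on low counts only through LPS libraries (2.60 CPM in at least 6 libraries was needed), so to be tested at all they had to be high after LPS. Among the 6 genes that PBS libraries alone would have kept, 4 rose in knockout and 5 in wild type. In bulk tissue, more cells of a type and more RNA per cell cannot be told apart.

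**Figure D1:**
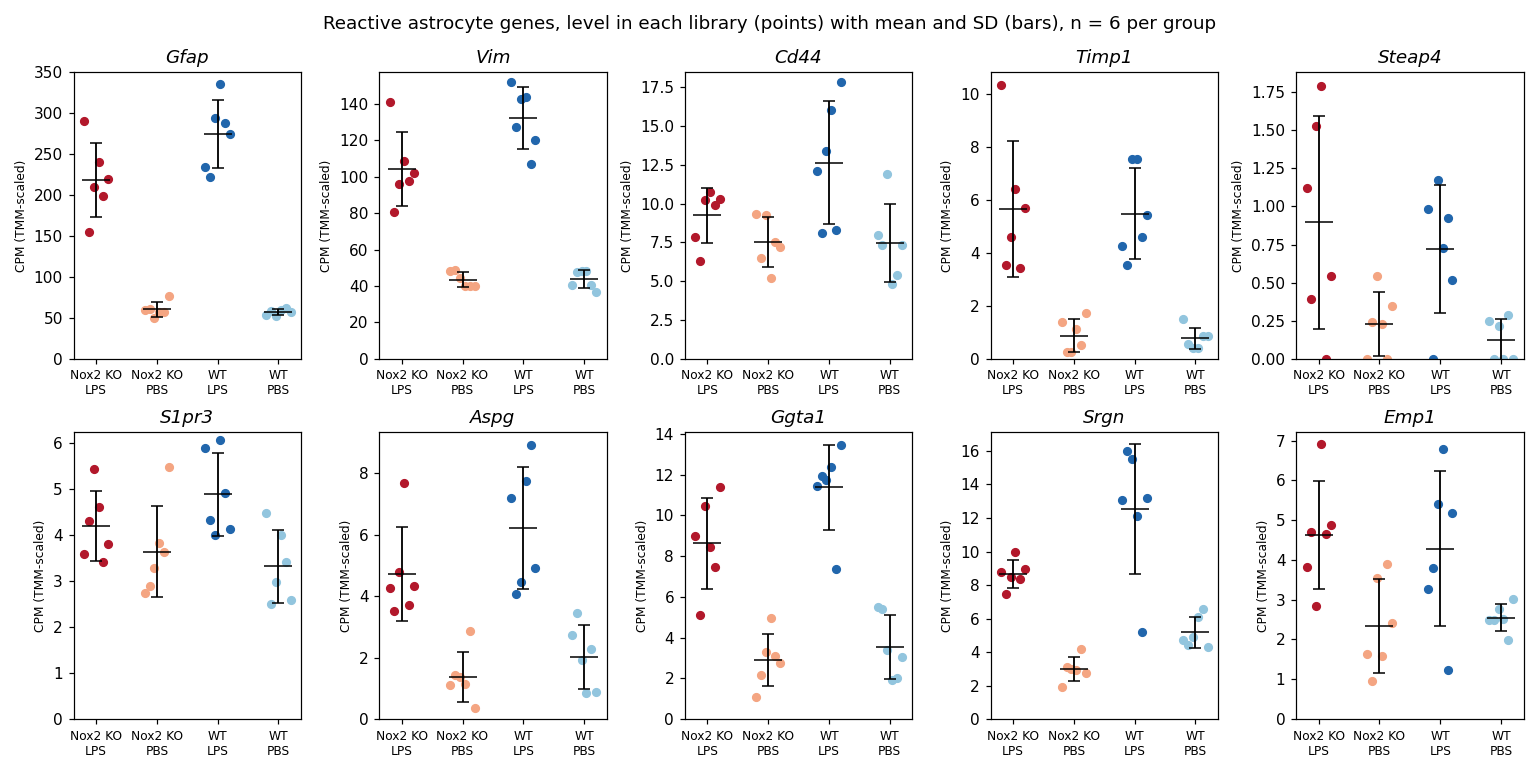
Level of each of the 10 genes in every library (points, TMM-scaled CPM, linear axes that start at 0), with the mean and SD of each group of 6 (bars), for knockout with LPS, knockout with PBS, wild type with LPS and wild type with PBS. The LPS libraries stand above every PBS library of their genotype for Gfap, Vim, Timp1, Aspg and Ggta1 in both genotypes, and the groups overlap for Cd44, S1pr3 and Emp1.

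Both filament genes rose in each genotype. Gfap (ENSMUSG00000020932, chromosome 11, 102887336 to 102900912, minus strand, GRCm38) stood at 154 CPM in the lowest, 215 CPM in the median and 291 CPM in the highest knockout LPS library, against 50.3, 58.6 and 76.2 CPM in knockout PBS. In wild type these levels were 222, 281 and 336 CPM after LPS, against 52.7, 58.0 and 62.6 CPM after PBS. Every LPS library lay above every PBS library of either genotype. Gfap rose 3.68-fold in knockout, a log2 change of 1.88 ± 0.10 (SE, edgeR adjusted p = 3.78e-19), and 4.80-fold in wild type, a log2 change of 2.26 ± 0.10 (edgeR adjusted p = 2.16e-22).

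Vim (ENSMUSG00000026728, chromosome 2, 13573927 to 13582826, plus strand) encodes vimentin, which pairs with GFAP in reactive astrocytes and is also the filament protein of endothelium, fibroblasts and many leukocytes. Its level was 80.8 CPM in the lowest, 99.9 CPM in the median and 141 CPM in the highest knockout LPS library, against 39.7, 42.4 and 48.7 CPM in knockout PBS. Wild type libraries held 107, 135 and 152 CPM after LPS, against 36.8, 44.2 and 48.4 CPM after PBS. All LPS libraries were higher than all PBS libraries, with log2 changes of 1.27 ± 0.10 in knockout (SE, edgeR adjusted p = 3.03e-14) and 1.58 ± 0.09 in wild type (edgeR adjusted p = 5.15e-18).

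Among secreted and granule proteins, Timp1 (ENSMUSG00000001131, chromosome X, 20870166 to 20874735, plus strand) had the largest fold of the 9 tested genes. It encodes an inhibitor of matrix metalloproteinases. Knockout LPS libraries ranged from 3.41 to 10.3 CPM with a median of 5.14 CPM, against 0.241 to 1.72 CPM with a median of 0.823 CPM in knockout PBS. Wild type LPS libraries ranged from 3.52 to 7.53 CPM with a median of 5.02 CPM, against a median of 0.715 CPM in wild type PBS, where the lowest library had 0.421 CPM. These levels rest on 9 to 46 counts in the knockout LPS libraries and 1 to 5 in knockout PBS, and on 13 to 32 counts in the wild type LPS libraries and 2 to 6 in wild type PBS. The log2 change was 2.75 ± 0.36 in knockout (SE, edgeR adjusted p = 8.8e-08) and 2.86 ± 0.36 in wild type (edgeR adjusted p = 3.03e-08), with no overlap in either genotype. Timp1 overlaps Syn1, a synaptic vesicle gene on the opposite strand, and the strand setting of the authors' counting is not given in the sources used here, so tags of the 2 genes cannot be told apart.

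Srgn (ENSMUSG00000020077, chromosome 10, 62493833 to 62527451, minus strand) encodes serglycin, the proteoglycan core of secretory granules, which blood-derived cells hold in large amounts. Its level was 7.45 CPM in the lowest, 8.62 CPM in the median and 9.99 CPM in the highest knockout LPS library, against 1.92, 2.97 and 4.16 CPM in knockout PBS. In wild type it was 5.22, 13.1 and 16.0 CPM after LPS, against 4.33, 4.82 and 6.54 CPM after PBS. The knockout groups did not overlap, while 1 wild type LPS library, replicate 5, fell within the PBS range. On the log2 scale Srgn rose by 1.53 ± 0.22 in knockout (SE, edgeR adjusted p = 7.43e-07) and by 1.28 ± 0.18 in wild type (edgeR adjusted p = 4.7e-07).

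Among the 9 genes, the receptors had the smallest estimates of the LPS change. Cd44 (ENSMUSG00000005087, chromosome 2, 102811141 to 102901665, minus strand) encodes the hyaluronan receptor, an adhesion molecule of astrocytes and leukocytes. Knockout libraries held 6.27 to 10.8 CPM after LPS with a median of 10.1 CPM, against 5.18 to 9.32 CPM after PBS with a median of 7.37 CPM. Wild type libraries held 8.13 to 17.8 CPM after LPS with a median of 12.8 CPM, against 4.84 to 11.9 CPM after PBS with a median of 7.33 CPM. Both pairs of groups overlapped. The log2 change of Cd44 was 0.76 ± 0.19 in wild type, a rise (SE, edgeR adjusted p = 0.00312), and in knockout it was 0.33 ± 0.21 (edgeR adjusted p = 0.382). A test of the difference between these changes gave -0.43 ± 0.28 (SE, edgeR adjusted p = 0.652), so the genotypes were not shown to differ.

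S1pr3 (ENSMUSG00000067586, chromosome 13, 51408639 to 51422797, plus strand) encodes a G protein-coupled receptor for sphingosine 1-phosphate. Knockout libraries ranged from 3.41 to 5.45 CPM after LPS, against 2.74 to 5.50 CPM after PBS. Wild type libraries ranged from 4.00 to 6.07 CPM after LPS, against 2.50 to 4.49 CPM after PBS. Ranges overlapped in both genotypes. The log2 change was 0.23 ± 0.22 in knockout (SE, edgeR adjusted p = 0.614, 95% interval -0.21 to 0.68) and 0.53 ± 0.22 in wild type (edgeR adjusted p = 0.0795, 95% interval 0.10 to 0.97). Without replicate 1 of wild type PBS, the wild type change was 0.63 and passed the threshold (edgeR adjusted p = 0.0483).

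The enzymes Aspg and Ggta1 rose in both genotypes. Aspg (ENSMUSG00000037686, chromosome 12, 112106679 to 112127559, plus strand) encodes an asparaginase homologue. It stood at 3.53 to 7.68 CPM in knockout LPS with a median of 4.30 CPM, against 0.343 to 2.86 CPM in knockout PBS with a median of 1.25 CPM. Wild type LPS libraries held 4.06 to 8.91 CPM with a median of 6.05 CPM, against 0.842 to 3.46 CPM in wild type PBS with a median of 2.09 CPM. The groups did not overlap in either genotype. Aspg rose by 1.74 ± 0.33 on the log2 scale in knockout (SE, edgeR adjusted p = 0.000107) and by 1.53 ± 0.29 in wild type (edgeR adjusted p = 6.36e-05).

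Ggta1 (ENSMUSG00000035778, chromosome 2, 35400179 to 35463231, minus strand) encodes the galactosyltransferase that caps glycans with alpha-linked galactose. Its level was 5.10 to 11.4 CPM in knockout LPS with a median of 8.71 CPM, against 1.10 to 4.96 CPM in knockout PBS with a median of 2.93 CPM. Wild type libraries held 7.38 to 13.4 CPM after LPS with a median of 11.8 CPM, against 1.90 to 5.49 CPM after PBS with a median of 3.21 CPM. Again LPS and PBS libraries did not overlap, with log2 changes of 1.57 ± 0.25 in knockout (SE, edgeR adjusted p = 5.56e-06) and 1.66 ± 0.23 in wild type (edgeR adjusted p = 1.72e-07). Ggta1 shares its strand with the overlapping predicted gene Gm43761, and Aspg shares its strand with Mir3073a. On the opposite strand, Gfap overlaps Gm26668, Cd44 overlaps Gm23731, S1pr3 overlaps Gm32834 and Aspg overlaps Mir3073b.

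Steap4 (ENSMUSG00000012428, chromosome 5, 7960457 to 7982213, plus strand) encodes a metalloreductase of iron and copper uptake and was near the detection limit. It had 22 counts over the 6 knockout LPS libraries, against 5 counts over knockout PBS, a depth-adjusted ratio of 4.45 (exact 95% interval with a lower bound of 1.64). In wild type it had 16 counts after LPS, against 3 counts after PBS, which is 5.87 times as many per unit depth (exact 95% interval 1.68 to 31.4). These intervals cover counting error only. At least 1 count was present in 5 of 6 knockout LPS libraries, against 4 of 6 in knockout PBS, and in 5 of 6 wild type LPS libraries, against 3 of 6 in wild type PBS. A fit with no filter on low counts gave a log2 change of 1.96 in knockout (edgeR adjusted p = 0.0751) and 2.25 in wild type (edgeR adjusted p = 0.0461). The p-values of that fit are not on the same footing as those of the main fit, as given for Gfap below. DESeq2 gave 2.07 in knockout (adjusted p = 0.151) and 2.50 in wild type (adjusted p = 0.0813), so the wild type call ended with that tool.

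Emp1 (ENSMUSG00000030208, chromosome 6, 135362545 to 135383173, plus strand) encodes epithelial membrane protein 1, a 4-pass membrane protein related to the myelin protein PMP22. Knockout libraries held 2.83 to 6.92 CPM after LPS with a median of 4.68 CPM, against 0.964 to 3.90 CPM after PBS with a median of 2.02 CPM. Wild type libraries held 1.23 to 6.80 CPM after LPS with a median of 4.48 CPM, against 1.99 to 3.03 CPM after PBS with a median of 2.51 CPM. Groups overlapped in both genotypes, and replicate 5 of wild type LPS was lower than every wild type PBS library. The log2 change of Emp1 was 0.98 ± 0.30 in knockout, a rise (SE, edgeR adjusted p = 0.0234), and in wild type it was 0.79 ± 0.29 (edgeR adjusted p = 0.0516). The knockout call ended without replicate 4 of knockout LPS (adjusted p = 0.102 by edgeR) or without replicate 1, 2 or 4 of knockout PBS (0.0587, 0.0862 and 0.0715). In wild type, Emp1 passed without replicate 3 or 4 of knockout LPS (edgeR adjusted p = 0.0490 and 0.0478), replicate 2 or 5 of knockout PBS (0.0459 and 0.0465) or replicate 1 or 5 of wild type LPS (0.0400 and 0.00911). A test of the difference in LPS change between genotypes gave 0.19 for Emp1, and it was not called.

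**Figure D2:**
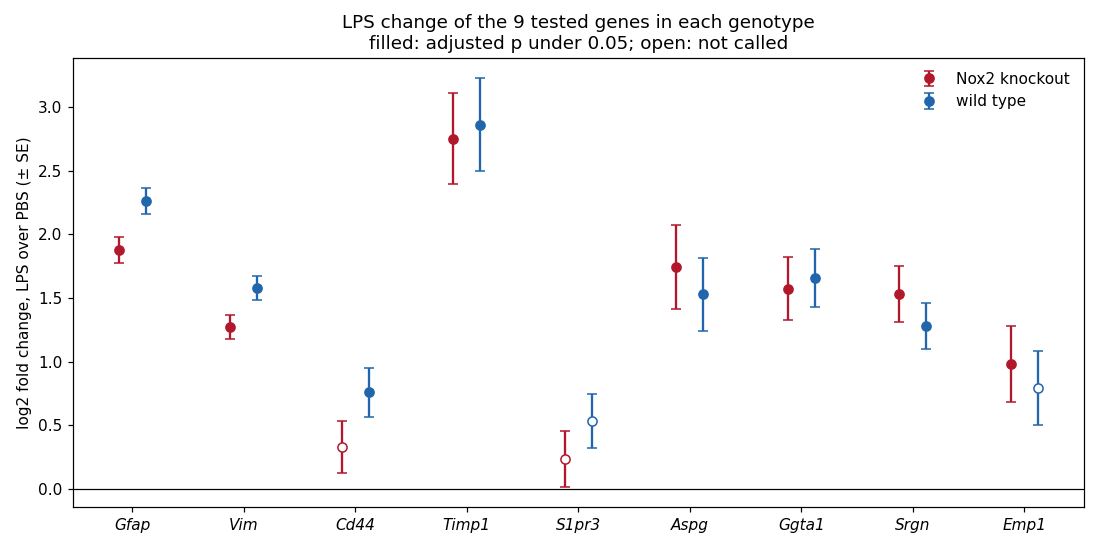
Log2 fold change of LPS over PBS with its SE (bars) for the 9 tested genes, in knockout and in wild type (filled points passed an edgeR adjusted p of 0.05, open points did not). Timp1 and Gfap stand highest in both genotypes, at 2.75 and 1.88 in knockout and 2.86 and 2.26 in wild type, and S1pr3 lies lowest, at 0.23 in knockout and 0.53 in wild type.

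Some genes had no overlap between LPS and PBS libraries. In knockout, 6 of 9 genes had all 6 LPS libraries above all 6 PBS libraries, where 4.24% of all tested genes did. In wild type 5 of 9 did, where 5.88% of all tested genes did, and Srgn was the gene with overlap in wild type and none in knockout. Among the 6 genes that PBS libraries alone would have kept, these counts were 4 in knockout and 3 in wild type. By size of the log2 change among 14380 genes, Timp1 ranked 60 in knockout and 69 in wild type, and Gfap ranked 148 in knockout and 119 in wild type.

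The next question was whether the libraries labelled knockout differed from wild type after LPS. Vim was the only one of the 9 genes called, and it was lower in knockout. Of all tested genes, 0.786% were called lower and 1.05% in either direction. The Vim libraries given above spanned 80.8 to 141 CPM in knockout LPS, against 107 to 152 CPM in wild type LPS, and 1 of 6 knockout libraries lay above the wild type mean. The log2 difference was -0.33 ± 0.09 (SE, edgeR adjusted p = 0.0427, 95% interval -0.50 to -0.16). This call ended in 10 of the 24 fits that left out 1 library. The libraries were replicates 2, 3, 4, 5 and 6 of knockout LPS (edgeR adjusted p = 0.141, 0.124, 0.0570, 0.0957 and 0.0933), replicate 3 of knockout PBS (0.0504), replicates 1, 3 and 4 of wild type LPS (0.0772, 0.112 and 0.132) and replicate 4 of wild type PBS (0.0532). Vim was also not called by DESeq2 (adjusted p = 0.0699), in a fit of the 2 groups alone (edgeR adjusted p = 0.109), with upper quartile scaling (0.0522), without Gm42418 and mitochondrial genes in the library size (0.0509) or without replicates 1 and 2 of wild type LPS together (0.0668).

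Gfap differed by nearly the same amount. Its log2 difference was -0.32 ± 0.09 (SE, edgeR adjusted p = 0.0588, 95% interval -0.50 to -0.14), which did not pass. It passed in 3 of the 24 fits with 1 library left out and in 3 of the 10 other fits. Knockout libraries spanned 154 to 291 CPM, against 222 to 336 CPM in wild type, and the highest knockout library was replicate 1. Without that library the difference was -0.41 (edgeR adjusted p = 0.00412), and without replicate 1 or 2 of wild type LPS, the lowest of their group, it was -0.36 and -0.38 (edgeR adjusted p = 0.0213 and 0.0128). Without both of these wild type libraries it was -0.43 (edgeR adjusted p = 0.00138). With no filter on low counts it was -0.31, no larger than with the filter, yet the edgeR adjusted p fell to 9.75e-06. The p-values of that unfiltered fit are therefore not on the same footing as those of the main fit. In the other direction it was -0.25 without replicate 2 of knockout LPS, and without replicate 4 of wild type LPS the edgeR adjusted p was 0.262. DESeq2 gave an adjusted p of 0.287.

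Srgn had the largest genotype difference after LPS among the 9 genes, -0.53 ± 0.17 (SE, edgeR adjusted p = 0.128). All 6 knockout libraries lay below the wild type mean, at 7.45 to 9.99 CPM, against 12.1 to 16.0 CPM in 5 of the wild type libraries and 5.22 CPM in replicate 5. Without that replicate the difference was -0.68 (edgeR adjusted p = 0.00997). Cd44 gave -0.45 ± 0.19 (edgeR adjusted p = 0.312), Ggta1 -0.37 ± 0.20 (edgeR adjusted p = 0.479), Aspg -0.36 ± 0.25 (edgeR adjusted p = 0.634) and S1pr3 -0.20 ± 0.21 (edgeR adjusted p = 0.782). Timp1 (0.07 ± 0.25) and Emp1 (0.06 ± 0.27) were close to 0, with intervals from -0.43 to 0.57 and from -0.48 to 0.59. In all, 7 of 9 differences were negative, 4 had an unadjusted p under 0.05, and the 2 groups overlapped for all 9 genes, where 0.389% of all tested genes were lower in knockout with no overlap. At that unadjusted threshold stood 1639 of the 14380 genes.

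After PBS, edgeR called 0 of 9 genes between knockout and wild type, where 0.132% of all tested genes were called. Of the 9, 1 gene, Srgn, had an unadjusted p under 0.05, as had 1256 genes in all, and DESeq2 called 0 of 9 as well. Srgn stood at 1.92 to 4.16 CPM in knockout PBS, against 4.33 to 6.54 CPM in wild type PBS. These groups did not overlap, as for 0.188% of all tested genes in this direction. Its log2 difference was -0.78 ± 0.24 (SE, edgeR adjusted p = 0.294, 95% interval -1.26 to -0.31). Gfap differed by 0.06 ± 0.11 (95% interval -0.17 to 0.29) and Vim by -0.02 ± 0.11 (95% interval -0.23 to 0.19), so their PBS levels lay close together in the 2 genotypes. Intervals were wide for Timp1, from -0.89 to 1.25, and for Aspg, from -1.33 to 0.19, where single PBS libraries held as few as 1 count in knockout and 2 in wild type.

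The interaction asked whether the LPS change itself differed between genotypes. edgeR called 0 of 9 genes, where 0.00695% of all tested genes were called, and that single gene was Cybb. DESeq2 called 0 of 9. At an unadjusted p under 0.05 stood 2 of 9, Gfap and Vim, and 1407 genes in all. The LPS change in knockout minus that in wild type was -0.38 ± 0.14 for Gfap (SE, edgeR adjusted p = 0.357, 95% interval -0.67 to -0.09) and -0.31 ± 0.14 for Vim (edgeR adjusted p = 0.445, 95% interval -0.58 to -0.03). With no filter on low counts the Gfap value was -0.37 and passed (edgeR adjusted p = 0.0257), though it was no larger than the -0.38 of the main fit. Without replicates 1 and 2 of wild type LPS together it was -0.50 and passed (edgeR adjusted p = 0.0440). Those replicates held the lowest Gfap of their group, so leaving them out could only move the value further from 0, and no pair was left out of another group. For Timp1, Aspg, Ggta1, Srgn and Emp1 the intervals held 0 and reached from -1.26 for Timp1 to 1.11 for Aspg. This test, the LPS changes and the genotype differences share the same libraries, so their values are not independent of each other.

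**Figure D3:**
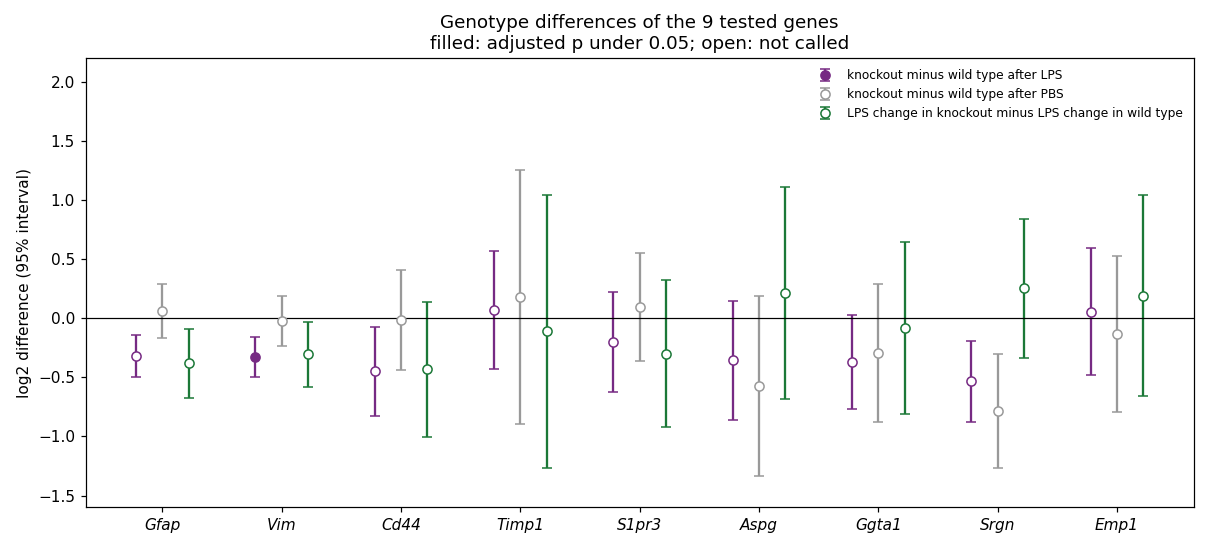
Log2 differences with 95% intervals for the 9 tested genes: knockout minus wild type after LPS, knockout minus wild type after PBS, and the LPS change in knockout minus that in wild type. The filled point is Vim after LPS at -0.33, the only value past an edgeR adjusted p of 0.05, and the intervals of Timp1 after PBS and in the interaction are the widest.

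The 10 lists of related genes were read in the same fit, where 7.05% of all tested genes rose with LPS in knockout and 10.9% in wild type. Lcn2, C3, Gbp2, Cd14, Des and Socs3 passed the filter on low counts only through LPS libraries, so the counts that hold them are partly fixed by it. Of the other genes shared by both reactive states, 4 of 5 tested rose in knockout and 5 of 5 in wild type, and 3 of 4 in knockout and 4 of 4 in wild type without Lcn2. Lcn2, an iron-siderophore-binding lipocalin, rose by 6.43 ± 0.33 on the log2 scale in knockout and 7.25 ± 0.32 in wild type, and Serpina3n, a protease inhibitor, by 3.53 ± 0.23 in knockout and 4.40 ± 0.23 in wild type. Cp, the copper-carrying ferroxidase ceruloplasmin, rose by 2.13 ± 0.13 in knockout and 2.40 ± 0.12 in wild type. Osmr, the oncostatin M receptor, rose by 1.21 ± 0.24 in knockout and 1.67 ± 0.23 in wild type. Of the other A1 genes, 8 of 9 tested rose in each genotype, among them complement C3 (3.84 ± 0.25 in knockout, 4.61 ± 0.23 in wild type) and the class I histocompatibility gene H2-D1 (1.67 ± 0.10 in knockout, 1.92 ± 0.10 in wild type). Without C3 and Gbp2, 6 of 7 rose in each genotype. Serpina3n and H2-D1 belong to families with near-identical copies, so their own values are uncertain. Fbln5, an elastic fibre protein, rose by 1.51 ± 0.17 in knockout and 2.04 ± 0.15 in wild type. Of the 10 other A2 genes listed, only 4 had enough counts to be tested. Of these, 3 rose in each genotype, which were Cd14, Tm4sf1 and Ptgs2, and 2 of 3 rose without Cd14. The rest of the A2 list was too low to judge.

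Partners and relatives of the 9 genes were called in part. Of all tested genes, 7.05% rose and 3.82% fell in knockout, and 10.9% rose and 7.12% fell in wild type. Among the genes listed with glial intermediate filaments, 1 of 4 rose in knockout and 2 of 4 in wild type. Without Des, which passed the filter only through LPS libraries, these counts were 0 of 3 in knockout and 1 of 3 in wild type. Des, which encodes desmin, the filament protein of muscle cells, rose by 1.01 ± 0.34 in knockout and 1.30 ± 0.33 in wild type, while nestin, Nes, gave 0.36 ± 0.18 in knockout and 0.46 ± 0.18 in wild type and was not called. Of 10 metalloproteinases and their inhibitors, 3 rose and 0 fell in knockout, and 6 rose and 1 fell in wild type. Mmp9, a gelatinase that TIMP1 inhibits, rose by 1.11 ± 0.26 in knockout and 1.99 ± 0.23 in wild type, and the sheddase gene Adam17 by 0.45 ± 0.10 in knockout and 0.65 ± 0.10 in wild type. Timp2 gave 0.02 ± 0.05 in knockout, not called, and rose by 0.21 ± 0.05 in wild type. Adamts4, an aggrecan-cleaving protease, was the one that fell in wild type, with a log2 change of -0.38 ± 0.12.

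CD44 ligands and linkers had 2 of 8 genes higher in knockout and 3 of 8 in wild type, beside 7.05% and 10.9% of all tested genes. Msn, which encodes moesin, a linker of CD44 to actin, rose by 1.01 ± 0.10 in knockout and 1.45 ± 0.10 in wild type. Spp1, which encodes the ligand osteopontin, rose by 0.60 ± 0.12 in knockout and 0.56 ± 0.12 in wild type. Of 9 sphingosine phosphate genes, 2 rose in knockout and 3 in wild type, and 0 fell in either. Sgpl1, the lyase that degrades sphingosine phosphate, rose by 0.31 ± 0.10 in knockout and 0.39 ± 0.10 in wild type. The receptor gene S1pr2 rose in wild type by 0.88 ± 0.23, and in knockout gave 0.23 ± 0.23, which was not called.

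STAT3 and gp130 signalling, which carries cytokine signals to Gfap in mouse astrocytes, had 4 of 10 genes higher in knockout and 5 of 10 in wild type, with 0 lower. The share of all tested genes that rose was 7.05% in knockout and 10.9% in wild type. Socs3, the feedback inhibitor of this pathway, rose by 1.66 ± 0.32 in knockout and 2.56 ± 0.30 in wild type. Stat3 itself rose by 0.50 ± 0.08 in knockout and 0.71 ± 0.08 in wild type, and Il6ra, the interleukin 6 receptor chain, by 1.09 ± 0.19 in knockout and 1.28 ± 0.18 in wild type. Of the family of Emp1, 1 of 3 rose in each genotype, Emp3, by 1.03 ± 0.21 in knockout and 1.66 ± 0.20 in wild type. Of the other STEAP genes, 0 of 3 rose, and Steap2 fell in wild type, with a log2 change of -0.38 ± 0.10.

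**Figure D4:**
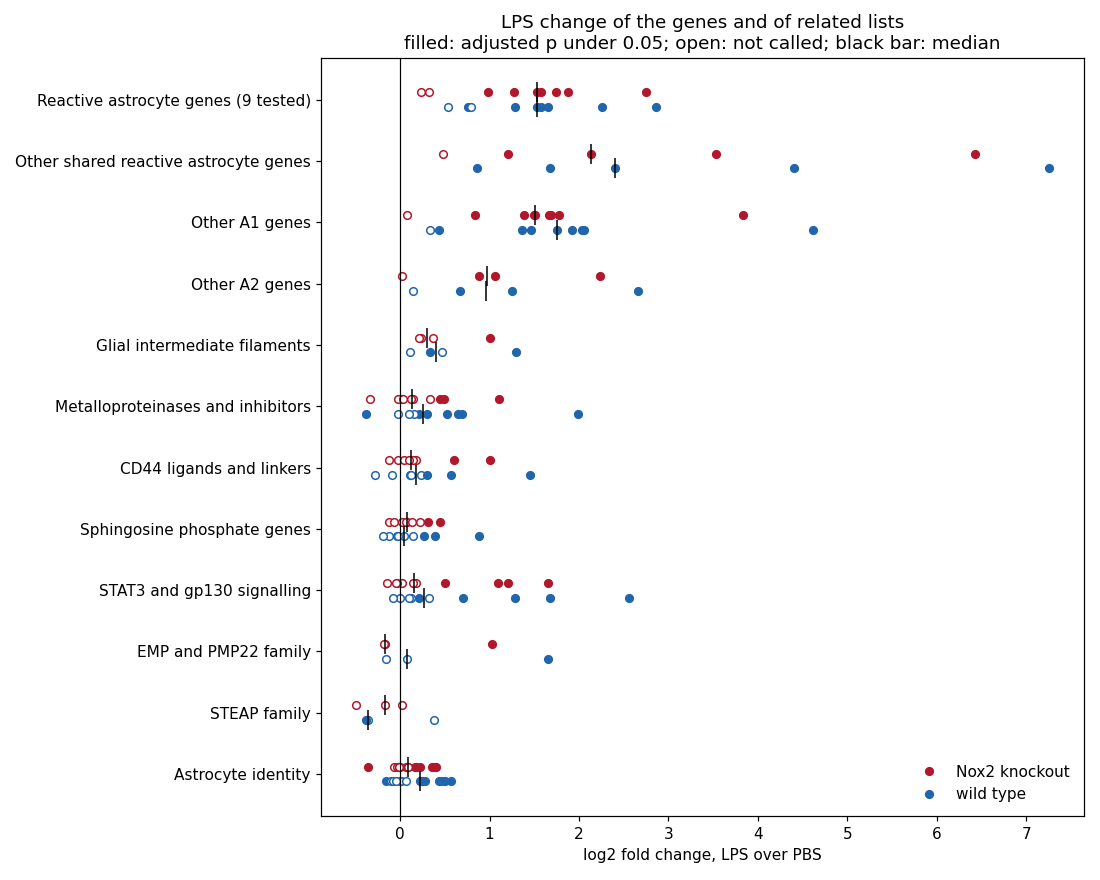
Log2 fold change of LPS over PBS for each tested gene of the reactive astrocyte set, the 10 related lists and the astrocyte identity genes (knockout above wild type in each row, filled points past an edgeR adjusted p of 0.05, black bars at the list medians). The point furthest right is Lcn2, at 6.43 in knockout and 7.25 in wild type, and astrocyte identity genes lie near 0, with medians of 0.08 in knockout and 0.23 in wild type.

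Astrocyte identity genes, which mark these cells in the resting brain, had median log2 changes of 0.08 in knockout and 0.23 in wild type. Of 15, 5 rose and 1 fell in knockout, where 7.05% of all tested genes rose and 3.82% fell. In wild type 8 rose and 1 fell, where 10.9% of all tested genes rose and 7.12% fell. S100b averaged 629 CPM in knockout LPS, against 807 CPM in knockout PBS, and 734 against 732 CPM in wild type. Slc1a2 averaged 1993 CPM in wild type LPS, against 2229 CPM in wild type PBS, and 2154 against 2258 CPM in knockout. Gjb6, a gap junction gene, rose by 0.38 ± 0.07 in knockout and 0.50 ± 0.06 in wild type, and Ndrg2 by 0.18 ± 0.05 in knockout and 0.44 ± 0.05 in wild type. Sox9, a glial transcription factor, gave 0.16 ± 0.07 in knockout, not called, and rose by 0.57 ± 0.07 in wild type. Their summed level was 8404 to 9254 CPM in knockout LPS, against 8418 to 8578 CPM in knockout PBS, and 8539 to 9182 CPM in wild type LPS, against 8257 to 8604 CPM in wild type PBS. The ranges overlapped, and 4 of 6 knockout LPS sums and 5 of 6 wild type LPS sums lay above every PBS sum of their genotype.

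Markers of other cells that can express some of the 10 genes moved with LPS as well. Among all tested genes, 7.05% rose and 3.82% fell in knockout, and 10.9% rose and 7.12% fell in wild type. Of 10 microglia markers, 7 rose and 0 fell in knockout and 8 rose and 1 fell in wild type, and their summed level was 545 to 724 CPM in knockout LPS, against 277 to 319 CPM in knockout PBS, and 654 to 890 CPM in wild type LPS, against 291 to 349 CPM in wild type PBS. Of the 7 tested markers of monocytes and border macrophages, 4 passed the filter only through LPS libraries, and the other 3, Lyz2, Mrc1 and F13a1, rose in each genotype. The summed level of the list was 105 to 153 CPM in knockout LPS, against 13.7 to 21.4 CPM in knockout PBS, and 133 to 253 CPM in wild type LPS, against 8.82 to 26.4 CPM in wild type PBS. Of the 6 tested neutrophil markers, 4 passed the filter only through LPS libraries, and the other 2, S100a8 and S100a9, rose in each genotype. The summed level was 90.0 to 393 CPM in knockout LPS, against 8.77 to 42.1 CPM in knockout PBS, and 124 to 711 CPM in wild type LPS, against 8.24 to 19.1 CPM in wild type PBS. None of the markers on these 3 lists was at 0 in every library of an LPS group, and Cxcr2 was at 0 in wild type PBS. Of 4 tested red cell genes, 0 rose and 4 fell in each genotype.

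Vessel markers rose too, and all counts here stand beside 7.05% of all tested genes higher and 3.82% lower in knockout. In wild type these shares were 10.9% higher and 7.12% lower. Of 8 endothelial markers, 7 rose in knockout and 8 in wild type, with sums of 467 to 514 CPM in knockout LPS, against 236 to 287 CPM in knockout PBS, and 519 to 619 CPM in wild type LPS, against 260 to 288 CPM in wild type PBS. Of 7 tested markers of pericytes and smooth muscle, 5 rose in each genotype, with sums of 217 to 272 CPM in knockout LPS, against 145 to 186 CPM in knockout PBS, and 279 to 306 CPM in wild type LPS, against 172 to 196 CPM in wild type PBS. Of 7 tested markers of meninges and fibroblasts, 3 rose in knockout and 2 in wild type. Ependymal markers rose in 0 of 5 in knockout and 1 of 5 in wild type, and choroid plexus markers rose in 0 of 5 in knockout and 1 of 5 in wild type, with 1 lower in wild type. Neuron markers fell in 2 of 6 in knockout and 4 of 6 in wild type, oligodendrocyte markers rose in 1 of 6 and fell in 3 of 6 in each genotype, and the 1 tested lymphocyte marker was called in neither. The part of these cells in the rise of Vim, Srgn, Cd44, Timp1 and Emp1 was not tested.

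Some markers of these lists also differed between genotypes after LPS, beside the lower Vim, where 0.786% of all tested genes were called lower in knockout. Of endothelial markers, 3 of 8 were called lower in knockout, of pericyte markers 2 of 7, of microglia markers 3 of 10, of monocyte markers 1 of 7 and of astrocyte identity genes 2 of 15. None of the tested neutrophil (0 of 6), meningeal (0 of 7), ependymal, neuron, oligodendrocyte, lymphocyte or red cell markers was called, and 1 of 5 choroid plexus markers, Ttr, was called higher in knockout. After PBS, 1 of 8 endothelial markers, Ly6c1, was called lower in knockout, at a mean of 26.4 CPM, against 34.9 CPM in wild type. That gene was not lower after LPS, with a mean of 69.4 CPM in knockout, against 66.5 CPM in wild type. Endothelial sums of 467 to 514 CPM in knockout LPS stood below all wild type LPS sums, 519 to 619 CPM, and pericyte sums of 217 to 272 CPM in knockout LPS stood below 279 to 306 CPM in wild type LPS. Esam, an endothelial junction gene, differed by -0.51 ± 0.08 (SE, edgeR adjusted p = 0.000195) and C1qa, a complement chain of microglia, by -0.35 ± 0.07 (edgeR adjusted p = 0.00378). Among related genes, Cp, C3, Fbln5 and Mmp9 were also called lower in knockout. These were 1 of 5 tested shared genes, 2 of 9 A1 genes and 1 of 10 metalloproteinases and inhibitors. No gene was called among A2 genes (0 of 4), filament genes (0 of 4), CD44 ligands and linkers (0 of 8) or sphingosine phosphate genes (0 of 9). The same held for STAT3 and gp130 signalling (0 of 10), the Emp1 family (0 of 3) and the STEAP genes (0 of 3). The log2 difference was -0.38 ± 0.10 for Cp, -0.61 ± 0.14 for C3, -0.60 ± 0.13 for Fbln5 and -0.86 ± 0.21 for Mmp9. The part of other cell types in the Vim difference was not tested.

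The 9 tested genes were compared in pairs within groups, and the median correlation was weak. Over the 24 libraries, after subtraction of each group's mean log2 CPM, 27 of 36 gene pairs had a positive Pearson r, with a median of 0.11. The highest were Gfap with Timp1 at 0.63, Srgn with Emp1 at 0.57, Cd44 with Emp1 at 0.49 and Gfap with Vim at 0.41. These describe pairs that share library and depth, and the same values were not computed for pairs of other genes. Replicate 1 of knockout LPS held the highest Gfap, Vim and Timp1 of its group, at 291, 141 and 10.3 CPM. Replicate 2 of knockout LPS was lowest of its group in 6 of the 9 genes. Replicate 5 of wild type LPS was lowest in Vim, Ggta1, Srgn and Emp1, at 107, 7.38, 5.22 and 1.23 CPM, and highest in Aspg, at 8.91 CPM.

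**Figure D5:**
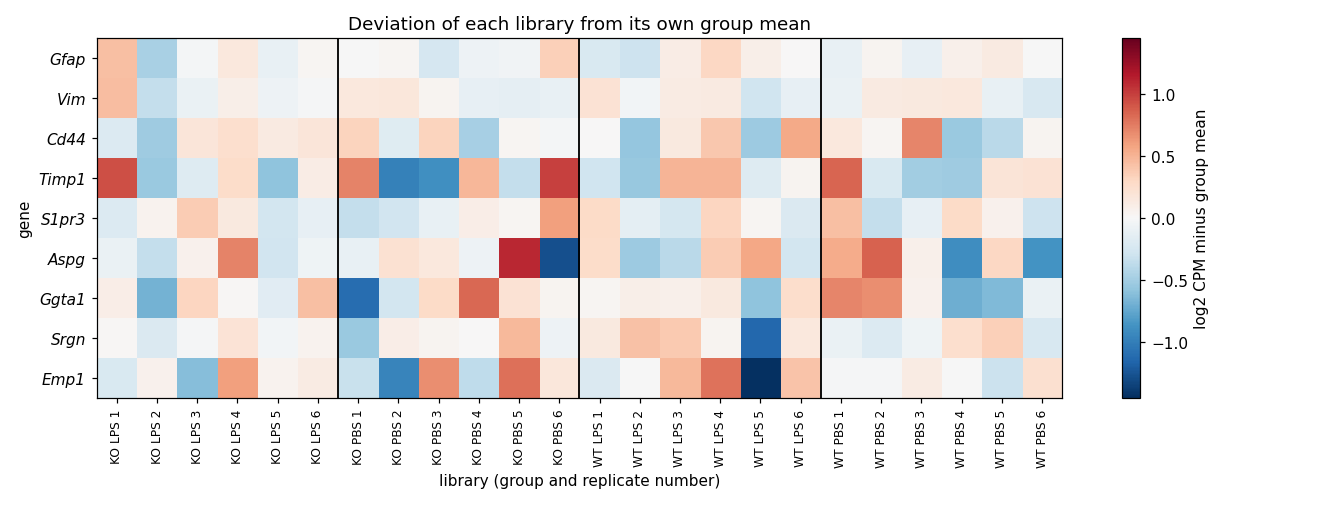
Deviation of each of the 24 libraries (columns) from the mean log2 CPM of its own group for the 9 tested genes (rows), red above and blue below the group mean. Replicate 1 of knockout LPS is red for Gfap, Vim and Timp1, and replicate 5 of wild type LPS is blue for Emp1, Srgn, Ggta1, Cd44 and Vim and red for Aspg.

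Among 10089 other genes with a mean of at least 10 CPM, those most like Gfap within groups over the 24 libraries were Galnt1 (Pearson r 0.83), Lig1 (0.76), Fcer1g (0.75), Bmp7 (0.73) and Ldlrad3 (0.73). These values describe shared variation between libraries, including depth and tissue sampling. With LPS, Galnt1 gave 0.04 ± 0.07 on the log2 scale in knockout, which was not called, and rose by 0.30 ± 0.07 in wild type. Fcer1g, a signalling chain of immune receptors, rose by 2.18 ± 0.14 in knockout and 2.21 ± 0.12 in wild type.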

How the data were processed

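The authors deposited whole-number counts of 3′ tags for 55421 genes in 24 libraries, each from its own mouse per the labels. Per the submitters' processing notes, the build was GRCm38 (mm10), and the tools named are STAR 2.7.3a, Subread 2.0.0 with featureCounts, bcl2fastq, DESeq2 1.26.0 and R 3.6.1. Not given in the sources used here are the strand setting, gene annotation, handling of multiply matching reads and PCR duplicate removal. Overlapping genes and near-identical copies can therefore share tags. From the counts, edgeR 4.0.16 under R 4.3.3 fitted all 24 libraries at once with a mean per group, TMM scaling and filterByExpr (minimum count 10), which kept 14380 genes. The quasi-likelihood F test was adjusted by Benjamini-Hochberg over these genes in each of 5 comparisons and called at an adjusted p under 0.05. Errors of log2 changes are standard errors from this fit, errors of levels are SD over 6 libraries, and the code was tested on simulated data. The 10 genes, the 10 related lists and the 13 marker lists were chosen with earlier results of these data known. From each list the text names up to 4 genes with the smallest p for LPS in wild type, and any gene it names outside that rule was chosen after its values were seen. Positions come from GENCODE M21, and promoter bases from RefSeq, GRCm38.p6, which matched all 10 genes. Alternatives were other scalings, filters and tools (DESeq2 1.42.0, limma 3.58.1), the groups compared alone, a replicate block, and libraries left out.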

Additional observations from a re-analysis of the deposited data

Results flagged for a closer look

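In 40 groups of 6 libraries (10 genes in 4 groups), 3 had a library whose gap to its nearest neighbour was large against the whole range of its group (past Dixon's 95% critical value), and chance alone flags about 1 group in 20. Aspg in knockout LPS had 7.68 CPM in replicate 4, and the next library held 4.80 CPM. Ggta1 in wild type LPS had 7.38 CPM in replicate 5, and the next library held 11.5 CPM. Srgn in wild type LPS had 5.22 CPM in the same replicate 5, and the next library held 12.1 CPM.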

How the results depend on the processing

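The rise of Gfap, Vim, Timp1, Aspg, Ggta1 and Srgn with LPS kept its direction and passed in both genotypes in all 24 fits with 1 library left out and in all 10 other fits, and so did Cd44 in wild type. Genes called for LPS stayed between 1317 and 1630 in knockout (1564 with all libraries) and between 2214 and 2754 in wild type (2596) with 1 library left out. Of the 9 genes, 6 to 7 were then called for LPS in knockout and 7 to 8 in wild type. In wild type Emp1 also passed in the fit of the compared groups alone (0.79, edgeR adjusted p = 0.0498) and without replicates 1 and 2 of wild type LPS together (0.91, edgeR adjusted p = 0.0357). Genotype results were less stable. Knockout against wild type after LPS called 151 genes, 72 to 289 with 1 library left out, 293 with no filter, 273 with the replicate block and 561 without replicates 1 and 2 of wild type LPS. Of the 9 genes, 1 was called there, 0 to 2 with 1 library left out, 0 with upper quartile scaling, without Gm42418 and mitochondrial genes, with DESeq2 or with the compared groups alone, and 2 with no filter or the block. After PBS, 19 genes were called, 13 to 32 with 1 library left out, 88 with no filter, 33 with the compared groups alone, 39 with the block and 36 without replicates 1 and 2 of wild type LPS, and 0 of the 9 throughout. The interaction called 1 gene, 1 to 20 with 1 library left out, 67 with no filter, 4 at a filter of 1 CPM in 6 libraries, 2 with DESeq2, 8 with the block and 249 without replicates 1 and 2 of wild type LPS. It called 0 of the 9 genes, and 1 (Gfap) with no filter or without those 2 replicates, the lowest of their group in Gfap. With no filter, the Gfap differences that passed were no larger than in the main fit, so calls of that fit are not comparable with the others. The cause of these moves was not tested.

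Signs turned for genotype values that were not called. After PBS, Cd44 was 0.012 with limma-voom. After LPS, Timp1 was -0.0072 with the block and -0.12 without replicates 1 and 2 of wild type LPS, and Emp1 was -0.062 without them. With 1 library left out, signs turned after LPS for Timp1 (-0.20 to 0.18) and Emp1 (-0.12 to 0.24). After PBS they turned for Gfap (-0.0071 to 0.11), Vim (-0.059 to 0.0055), Cd44 (-0.13 to 0.19), Timp1 (-0.056 to 0.49), S1pr3 (-0.027 to 0.20) and Emp1 (-0.35 to 0.036). In the interaction they turned for Timp1 (-0.42 to 0.12), Aspg (-0.039 to 0.55) and Ggta1 (-0.27 to 0.17). Same-numbered libraries of different groups deviated together only weakly (r from -0.07 to 0.15). Their mean r lay between 0.0094 and 0.043 over the pairs of groups, against -0.0085 to -0.0017 for libraries of different numbers. The replicate block pairs libraries by number alone. With the block Gfap after LPS was called (edgeR adjusted p = 0.0137), and no other call of the 9 genes changed. Depth limits Steap4, Timp1 and Aspg most, with as few as 0, 1 and 1 counts in a library.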
